A study of Mus musculus with 42 samples.

Results

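The 4 libraries described here hold the transfer RNA (tRNA) pool of wild-type mouse CD4 T cells after 6 h and after 18 h of stimulation, with 2 libraries at each time, out of 42 samples in the series. They were taken as labelled, and all 242 reference sequences of their tables were kept: 220 of tRNAs, 7 of ribosomal RNAs (rRNA) and 15 of small nuclear and nucleolar RNAs. Naive CD4 T cells came from the spleens of wild-type mice, the growth protocol gives an age of 8 weeks, and no strain is labelled for these libraries. The cells of both groups were cultured on plate-bound anti-CD3 (5 µg/ml), which engages the T cell receptor, with anti-CD28 (2 µg/ml), the costimulatory signal. By the labels the groups differ in time only, and neither is unstimulated. A batch that followed time could not be told apart from time. Small RNA under 200 nt was stripped of its amino acids and treated with AlkB, a demethylase that removes methyl marks which block reverse transcription. The library totals were 81153443 and 89534321 reads at 6 h and 76226851 and 70457592 reads at 18 h. Labels do not say that the replicates came from separate animals or cultures, so every p-value measures the spread between libraries, which may be technical. The main edgeR fits estimate that spread from all 8 tRNA-seq libraries, those of 0 h and 48 h included. No reference is a protein-coding gene, so the labelled cell type was not checked against its markers.

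A tRNA carries an amino acid to the ribosome and reads a codon through its anticodon. Isoacceptors carry the same amino acid on different anticodons, and isodecoders share an anticodon but differ elsewhere in their sequence, since mammalian genomes hold many tRNA genes per anticodon. RNA polymerase III transcribes them, and a T cell that leaves the resting state enlarges its machinery for making protein before it divides. Levels are given as reads scaled to a library total of 1000000 reads (RPM), and the tables name each reference by amino acid, anticodon and a number, such as Gly-GCC-1. This scale and the others used below are relative, so a rise or fall need not be a change in the amount per cell.

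The tRNA references took up most reads at both times, and more of them at 18 h. Their share of the library was 87.1% and 83.0% at 6 h and 89.5% and 91.5% at 18 h, so the groups did not overlap. The mean rose from 85.1% ± 2.93 (SD, n = 2) to 90.5% ± 1.42 (SD, n = 2), a difference of 5.42 percentage points (exact permutation test, two-sided, p = 0.333, the smallest that 2 against 2 libraries can give). At rest (0 h) the share was 66.7% in each of the 2 libraries. The share on rRNA went from 9.29% ± 2.13 to 6.45% ± 0.965 and that on small nuclear and nucleolar RNA from 5.37% ± 0.795 to 2.79% ± 0.526 (SD, n = 2 each, p = 0.333 each by the same exact test). Counting error alone is at most 0.0113 percentage points on the tRNA share (95% Wilson interval), and covers counting only. In a bulk sample, a change in the cells present and a change in RNA per cell cannot be told apart.

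Of 49 isoacceptors with a mean of at least 10 RPM, 12 were higher and 1 was lower at 18 h than at 6 h (26.5% called, edgeR quasi-likelihood test, Benjamini-Hochberg adjusted p under 0.05). Those that rose were both glutamine isoacceptors (Gln-TTG and Gln-CTG), all 3 proline isoacceptors, Trp-CCA, Tyr-GTA, Gly-TCC, Gly-GCC, Arg-TCG, Arg-CCT and Leu-TAG, and the selenocysteine tRNA SeC-TCA fell. The rises were small: log2 fold changes lay between 0.25 for Arg-CCT and 0.38 for Gln-TTG, against a median of 0.06 over all 49. The count depends on the scale: with the tRNA reads alone as library size and trimmed-mean (TMM) factors, here called the tRNA scale, 3 were higher and 4 lower (14.3% called), and 4 calls were shared. Leaving out replicate 2 of 6 h left 3 calls on library totals, and leaving out either 6 h library left 1 call on the tRNA scale.

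**Figure D1:**
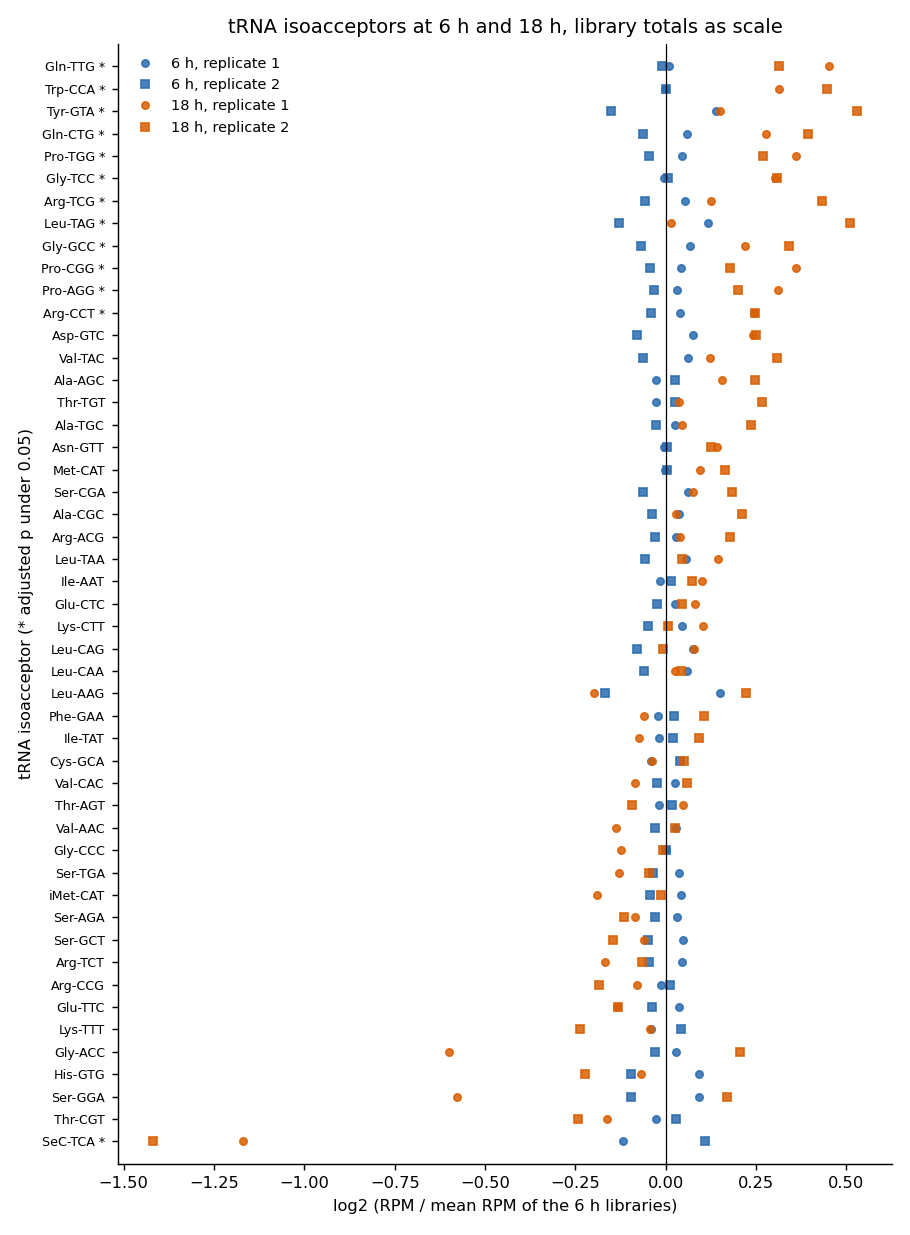
Each row is a tRNA isoacceptor and each point a library, placed by its log2 ratio to the mean RPM of the 6 h libraries (circles replicate 1, squares replicate 2, blue 6 h, orange 18 h). SeC-TCA stands far to the left at 18 h, while the 12 isoacceptors that rose sit less than 0.6 to the right of the 6 h mean in each library.

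With all 8 libraries in the fit, the glutamine and tryptophan tRNAs were higher on both scales. On the tRNA scale, none of them was called when replicate 1 or replicate 2 of 6 h was left out. The log2 fold changes were then 0.30 and 0.31 for Gln-TTG and 0.29 and 0.31 for Trp-CCA. Gln-TTG, which reads the CAA codon, measured 13656 and 13483 RPM at 6 h and 18543 and 16865 RPM at 18 h. Both 18 h libraries lay above both 6 h libraries, with a log2 fold change of 0.38 ± 0.08 (SE, adjusted p = 0.000394), and of 0.31 on the tRNA scale (adjusted p = 0.0244). Its level had been 8218 and 8928 RPM at 0 h and was 14707 and 15521 RPM at 48 h, so it was highest at 18 h. Gln-CTG, which reads the other glutamine codon, went from 23954 and 22031 RPM to 27843 and 30215 RPM, with a log2 fold change of 0.34 ± 0.08 (SE, adjusted p = 0.00299; 0.26 and adjusted p = 0.0244 on the tRNA scale). It was no longer called without replicate 2 of 6 h (log2 fold change 0.28, adjusted p = 0.168). Trp-CCA, the only tryptophan isoacceptor, measured 12611 and 12630 RPM at 6 h and 15681 and 17203 RPM at 18 h. Its groups were well apart, with a log2 fold change of 0.38 ± 0.08 (SE, adjusted p = 0.000394). The tRNA scale gave 0.31 (adjusted p = 0.0167). In the 0 h and 48 h libraries Trp-CCA lay between 11212 and 13116 RPM. Its mean share of tRNA reads, however, fell from 1.79% in resting cells to 1.48% by 6 h. The 18 h mean of 1.82% was close to the resting share, and the 48 h mean was 1.48%. On the tRNA scale Trp-CCA was lower after 6 h than in resting cells (log2 fold change -0.30, edgeR adjusted p = 0.0249).

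The other rises were called on library totals and not on the tRNA scale. Tyr-GTA measured 16574 and 13549 RPM at 6 h and 16706 and 21746 RPM at 18 h, so the groups nearly touched and the replicates of 18 h stood apart. Its log2 fold change of 0.35 ± 0.09 (SE, adjusted p = 0.00433) fell short on the tRNA scale (0.28, adjusted p = 0.0982) and in a fit of the 4 libraries alone (0.35, adjusted p = 0.076). It was lower without replicate 2 of 6 h (0.21, adjusted p = 0.243) and without replicate 2 of 18 h (0.15, adjusted p = 0.23). Pro-TGG, among the 6 most abundant isoacceptors, measured 37645 and 35314 RPM at 6 h and 46789 and 43919 RPM at 18 h. The log2 fold change was 0.31 ± 0.10 (SE, adjusted p = 0.0203, and 0.07 on the tRNA scale), and the call was lost without replicate 2 of 6 h (adjusted p = 0.243) or replicate 1 of 18 h (adjusted p = 0.108). Gly-TCC, with 1 reference, had replicates that differed little: 16756 and 16890 RPM at 6 h and 20729 and 20835 RPM at 18 h. Its log2 fold change was 0.30 ± 0.08 (SE, adjusted p = 0.00317, and 0.0516 on the tRNA scale), and it was not called without replicate 2 of 6 h (adjusted p = 0.0579). Leu-TAG overlapped between the groups, with 11795 and 9944 RPM at 6 h and 10989 and 15474 RPM at 18 h.

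Of the 6 most abundant isoacceptors, Pro-TGG and Gly-GCC were called on library totals, beside 13 of 49 (26.5%) over all isoacceptors. His-GTG, the most abundant, held 7.81% ± 0.453 of tRNA reads at 6 h and 6.66% ± 0.608 at 18 h (SD, n = 2 each), and its RPM overlapped between the groups (adjusted p = 0.477). Glu-CTC held 6.12% and 6.01% of tRNA reads on average, and Cys-GCA 6.44% and 6.07%, with adjusted p-values of 0.787 and 0.96. Gly-GCC rose from 34278 and 31196 RPM to 38140 and 41454 RPM (log2 fold change 0.28 ± 0.10, SE, adjusted p = 0.0298), but not on the tRNA scale (adjusted p = 0.0819), without replicate 2 of 6 h (adjusted p = 0.385) or without replicate 2 of 18 h (adjusted p = 0.23). Asp-GTC came close, with 29601 and 26633 RPM at 6 h and 33213 and 33409 RPM at 18 h (adjusted p = 0.0586), and passed without replicate 1 of 6 h (adjusted p = 0.0476) and in a fit of the 4 libraries alone (adjusted p = 0.0489). The initiator methionine tRNA (iMet-CAT), which starts translation, measured 29377 and 27729 RPM at 6 h and 25019 and 28286 RPM at 18 h, with overlap and a log2 fold change of -0.10 ± 0.09 (SE, adjusted p = 0.425). The elongator methionine tRNA (Met-CAT), which serves internal AUG codons, measured 10526 and 10573 RPM at 6 h and 11275 and 11824 RPM at 18 h (log2 fold change 0.13 ± 0.08, SE, adjusted p = 0.247). On the tRNA scale Thr-CGT, Glu-TTC and Arg-TCT were called lower, with log2 fold changes of -0.27, -0.21 and -0.19 (adjusted p = 0.0305, 0.0383 and 0.0401); on library totals none of the 3 passed.

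The largest fall among the tRNAs was that of SeC-TCA, which inserts selenocysteine at UGA codons of selenoprotein mRNAs. It measured 3385 and 3966 RPM at 6 h and 1633 and 1374 RPM at 18 h. Both 18 h libraries lay far below both 6 h libraries, by 59.1% on average, with a log2 fold change of -1.29 ± 0.12 (SE, adjusted p = 1.02e-11) and of -1.36 on the tRNA scale (adjusted p = 0.000209). The call held in each fit that left out a library. The level at rest was 4266 and 3623 RPM, close to that at 6 h on library totals, and at 48 h it was 1681 and 1740 RPM. On the tRNA scale SeC-TCA was already lower at 6 h than at rest (log2 fold change -0.48, edgeR adjusted p = 0.0444). As background, the selenocysteine tRNA gene differs from other tRNA genes in being read by RNA polymerase III from a promoter upstream of the gene, as the U6 small nuclear RNA gene is.

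Summed by amino acid, 4 of 22 families passed the test (18.2% called; 3 or 13.6% on the tRNA scale). Glutamine, tryptophan and proline were higher, with log2 fold changes of 0.35, 0.38 and 0.29 (adjusted p = 0.00278, 0.00558 and 0.00958), and selenocysteine was lower. Proline did not pass on the tRNA scale (adjusted p = 0.0788) or without replicate 1 of 18 h (adjusted p = 0.0839). Without replicate 1 of 6 h tryptophan just missed (adjusted p = 0.0537), and without replicate 2 of 6 h only selenocysteine passed. Beside 26.5% of all isoacceptors called, none of the 5 serine isoacceptors was, with a median log2 fold change of -0.10 (-0.17 on the tRNA scale). Of the 5 leucine isoacceptors 1 was called, at a median of 0.03 that turned to -0.04 on the tRNA scale.

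Grouped by the first anticodon base, which faces the third base of the codon and tolerates wobble, the pool changed by less than 1 percentage point in each class. Anticodons that start with T took 21.3% and 21.6% of tRNA reads at 6 h and 22.1% and 22.3% at 18 h, without overlap (exact permutation test, two-sided, p = 0.333). Those that start with G took 29.3% and 28.8% at 6 h and 28.5% and 28.4% at 18 h, again without overlap (p = 0.333 by the same exact test). Anticodons starting with A, most of which are read as inosine, went from a mean of 14.5% to 14.4%, and those starting with C stood at 35.0% and 34.9%. Among the 8 isoacceptors known to carry inosine, 1 (Pro-AGG) was called, with a median log2 fold change of 0.06 (none and a median of -0.017 on the tRNA scale). The 11 leucine, serine and tyrosine isoacceptors gave 2 calls and a median of 0.03, beside 13 calls of 49 (26.5%) over all isoacceptors. On the tRNA scale none of the 11 was called and the median was -0.04. The distance between pools, which is the share of tRNA reads that would have to change isoacceptor to make a pair of libraries alike, was 4.93 to 6.32 percentage points between 6 h and 18 h, against 2.57 to 4.58 between libraries of the same time.

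At the level of single references the change was wider. Of 190 references tested, 60 were higher and 20 lower at 18 h (42.1% called, edgeR adjusted p under 0.05), and the 60 were all tRNAs (60 of 168, 35.7%). Among tRNAs only SeC-TCA-1, Thr-CGT-1 and Arg-TCT-1 were lower, while 17 of the 22 rRNA, small nuclear and nucleolar references were (77.3%). On the tRNA scale 50 were higher and 23 lower (38.4% called), with 70 calls shared. DESeq2 size factors, which centre on the median reference, moved the median log2 fold change of all references by -0.21, from 0.18 to -0.03, and then gave 39 higher and 35 lower. Without replicate 2 of 6 h there were 37 higher and 13 lower.

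The references that rose were mostly the lesser isodecoders of their anticodon. For each of the 42 isoacceptors with more than 1 reference, the reference with the highest mean RPM over all 8 tRNA-seq libraries is here called its leading reference, a split that was chosen after the values had been seen. Of 119 other references tested, 53 were higher and none was lower (44.5% higher), at a median log2 fold change of 0.39. Of the 42 leading references, 4 were higher and 2 lower (9.52% higher), at a median of -0.03. With DESeq2 size factors the other references gave 39 higher and 4 lower, and the leading ones none higher and 13 lower. Between 36 and 68 of the other references were higher under every alternative run, and choosing the leading reference in the 0 h libraries alone, which the contrast does not use, gave 54 higher and none lower.

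**Figure D2:**
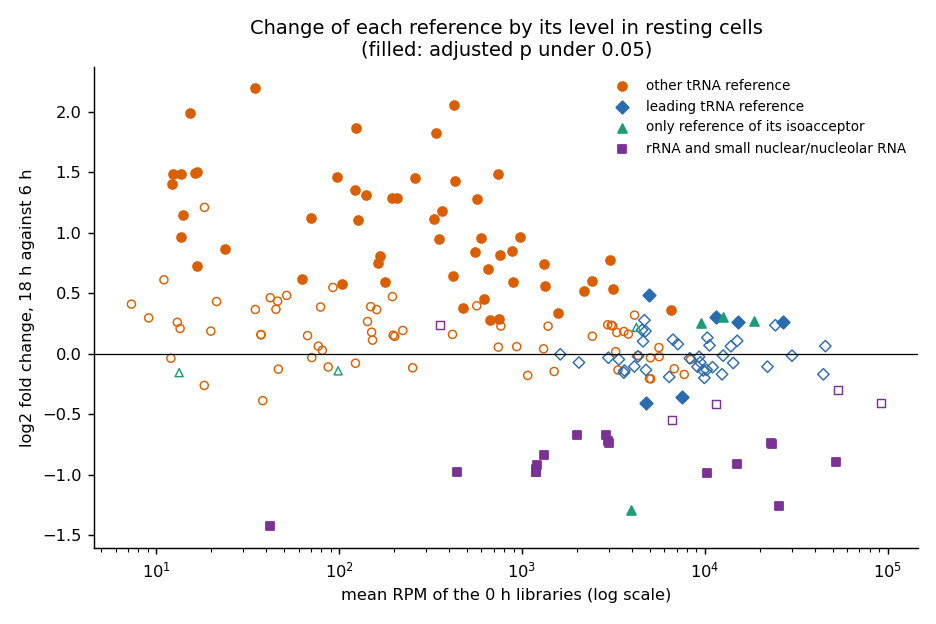
Each symbol is a reference, by its mean RPM in resting cells (log axis) and its log2 fold change between 6 h and 18 h; filled symbols passed the test. The rises above 1 all belong to other tRNA references (orange) below 1000 RPM, the leading references (blue) lie near 0, and the rRNA, small nuclear and nucleolar references (purple) lie below 0 except 1.

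References of low and of high level in resting cells differed in a like way. Among tRNA references with 100 to 1000 RPM at 0 h, 31 of 47 were higher and none lower, with a median log2 fold change of 0.64. Among those with 1000 to 10000 RPM, 10 of 59 were higher and 3 lower, with a median of -0.0050, and among those with at least 10000 RPM, 5 of 20 were higher and none lower, with a median of 0.07. References under 100 RPM gave 14 higher of 42, with a median of 0.42. In all, 24 tRNA references were called with a log2 rise over 1, and 1 with a fall over 1.

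Summed over the pool, the other references took 21.8% and 21.9% of tRNA reads at 6 h and 23.9% and 25.3% at 18 h. The 18 h libraries lay above the 6 h libraries, with means of 21.8% ± 0.0446 and 24.6% ± 1.00 (SD, n = 2 each), a difference of 2.76 percentage points (exact permutation test, two-sided, p = 0.333). At 0 h the share was 21.6% and 22.0%, and at 48 h 26.1% and 25.8%. The leading references went from 71.1% ± 0.153 to 67.7% ± 0.60 (SD, n = 2 each).

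**Figure D3:**
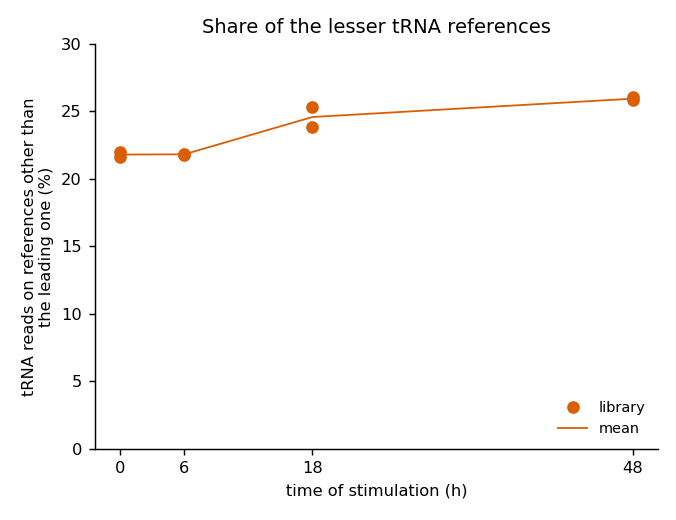
Percent of tRNA reads on references other than the leading one of their isoacceptor, against time of stimulation; points are libraries and the line joins the means. The 0 h and 6 h libraries lie between 21.6% and 22.0%, and the 18 h and 48 h libraries between 23.9% and 26.1%.

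Within single isoacceptors, the share of reads off the leading reference was higher in both 18 h libraries than in both 6 h libraries for 28 of 42 (66.7%), and lower in both for 3 (7.14%: Met-CAT, Gln-TTG and Asp-GTC). The largest shift, named after its values were seen, was in Ala-CGC, where that share went from 16.8% and 17.5% to 30.1% and 31.2%. Its leading reference Ala-CGC-2 did not pass the test (log2 fold change -0.13), Ala-CGC-1 rose by 0.96 on the log2 scale (adjusted p = 0.000211), and the summed isoacceptor was not called (log2 fold change 0.12). Leu-TAA shifted by a like amount, from 12.5% and 13.1% to 24.9% and 26.9%, with Leu-TAA-1 higher by 1.11 on the log2 scale (adjusted p = 0.000105). Of the 36 isoacceptors that were not called as sums, 21 held at least 1 called reference, beside 80 of 190 references called over all (42.1%). An isoacceptor with several tested references has several chances to hold a call, so this count shows nothing particular to the uncalled sums. Met-CAT went the other way, from 41.7% and 44.8% off the leading reference to 39.1% and 35.4%. Ala-TGC and Asp-GTC each hold a pair of references whose RPM differ by less than 1% in every library (at most 0.658% and 0.398%), so reads of these pairs cannot be told apart.

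**Figure D4:**
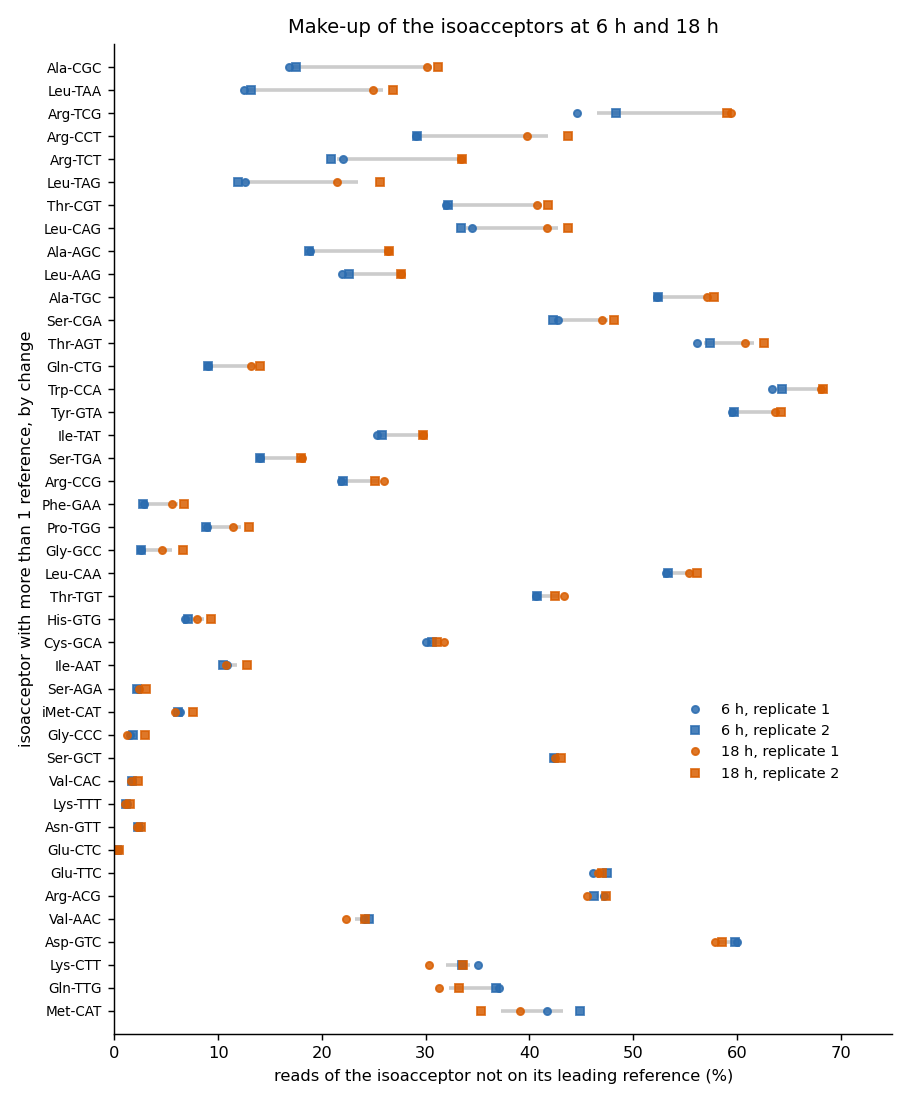
For each of the 42 isoacceptors with more than 1 reference, the percent of its reads that fell on references other than the leading one, by library (blue 6 h, orange 18 h; circles replicate 1, squares replicate 2; grey bars join the means). The shift is widest in Ala-CGC and Leu-TAA at the top, and Met-CAT at the bottom moved the other way.

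Above a mean of 100 RPM, the 8 references with the highest rises were all such lesser isodecoders. Gly-GCC-1, a glycine tRNA, measured 445 and 391 RPM at 6 h and 1340 and 2150 RPM at 18 h. It was higher in both 18 h libraries, though these differ from each other, with a log2 fold change of 2.06 ± 0.21 (SE, adjusted p = 0.000229). The leading reference of the same anticodon, Gly-GCC-2, measured 33406 and 30395 RPM at 6 h and 36406 and 38711 RPM at 18 h and was not called (adjusted p = 0.0789). At rest Gly-GCC-1 measured 394 and 459 RPM, near its 6 h level, and at 48 h 2219 and 2174 RPM.

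Ala-AGC-3, an alanine tRNA, had the highest rise of the 8, from 26.8 and 26.1 RPM to 90.7 and 151 RPM. It passed the minimum of 100 RPM, a mean over all 8 libraries, only through its level at 18 h and 48 h. Its log2 fold change was 2.19 ± 0.25 (SE, adjusted p = 0.000349), and it went on to 325 and 302 RPM at 48 h. Phe-GAA-3, a phenylalanine tRNA, measured 128 RPM in each 6 h library and 398 and 537 RPM at 18 h. Its log2 fold change was 1.87 ± 0.17 (SE, adjusted p = 0.000178), beside 0.98-fold for the leading Phe-GAA-1 (adjusted p = 0.826), which measured 10946 and 11288 RPM at 6 h and 10361 and 11483 RPM at 18 h. Ala-TGC-4 had the lowest adjusted p of the 8 (5.47e-05), with 557 and 564 RPM at 6 h and 1807 and 2173 RPM at 18 h, a log2 fold change of 1.83 ± 0.11 (SE). Its level at rest was 328 and 349 RPM.

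The other 4 rose by 1.43 to 1.49 on the log2 scale. Leu-TAG-1, a leucine tRNA, measured 953 and 774 RPM at 6 h and 1778 and 3067 RPM at 18 h (log2 fold change 1.49 ± 0.23, SE, adjusted p = 0.0017). The replicates of 18 h were far apart but both above 6 h, and the leading Leu-TAG-3 overlapped between the groups (adjusted p = 0.707). Gln-CTG-1 went from 217 and 205 RPM to 530 and 631 RPM, and Arg-ACG-2, an arginine tRNA, from 348 RPM in each library to 881 and 1028 RPM. Arg-CCT-3 measured 540 and 510 RPM at 6 h and 1327 and 1496 RPM at 18 h. On the tRNA scale all 8 remained called, with log2 fold changes from 1.35 (Arg-CCT-3) to 2.11 (Ala-AGC-3).

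Arg-TCT was the only isoacceptor with called references above 100 RPM in both directions. Its leading Arg-TCT-1 fell from 8200 and 7802 RPM to 6039 and 6478 RPM, a log2 fold change of -0.35 ± 0.07 (SE, adjusted p = 0.00609). Arg-TCT-2 rose from 196 and 181 RPM to 436 and 501 RPM, a log2 fold change of 1.32 ± 0.13 (SE, adjusted p = 0.000211). Arg-TCT-5 (log2 fold change 1.11) and Arg-TCT-3 (0.33) rose too, so that reads off the leading reference went from 22.1% and 20.9% to 33.4% and 33.5% of the isoacceptor. The sum was not called on library totals (adjusted p = 0.317) and was lower on the tRNA scale, as above. Thr-CGT-1, the leading reference of a threonine isoacceptor, fell from 6092 and 6309 RPM to 4832 and 4491 RPM (log2 fold change -0.41 ± 0.08, SE, adjusted p = 0.00369).

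Leading references of the named isoacceptors other than SeC-TCA moved by at most 0.49 on the log2 scale in either direction. Gln-TTG-3 rose from 8591 and 8520 RPM to 12735 and 11270 RPM, a log2 fold change of 0.49 ± 0.09 (SE, adjusted p = 0.0032) that exceeds the one of its isoacceptor; it was not called with DESeq2 size factors (adjusted p = 0.0915). Pro-TGG-2, Gln-CTG-2, Gly-TCC-1 and Asp-GTC-1- (spelled so in the tables) were called higher on library totals, with log2 fold changes of 0.26, 0.26, 0.30 and 0.30, and none of the 4 on the tRNA scale or without replicate 2 of 6 h (adjusted p from 0.111 to 0.264). Asp-GTC-1- passed at an adjusted p of 0.0499, missed with no filter (0.0605), and its near-equal partner Asp-GTC-1 was not called (log2 fold change 0.30, adjusted p = 0.0511). Trp-CCA-2 and Tyr-GTA-3 were not called (adjusted p = 0.112 and 0.324), while 4 of the 5 other tryptophan references and 2 of the 4 other tyrosine references were higher. Over all isoacceptors, 53 of 119 other references (44.5%) were higher, which is the share to set beside these and the cysteine count below. The references His-GTG-2, Glu-CTC-1, Cys-GCA-3, iMet-CAT-1 and Met-CAT-1 did not pass on library totals (adjusted p from 0.0567 for Met-CAT-1 to 0.926 for Cys-GCA-3). With DESeq2 size factors in edgeR, iMet-CAT-1 was lower (log2 fold change -0.32, adjusted p = 0.0493), as it was with DESeq2 (adjusted p = 0.00344). His-GTG-2 was lower with DESeq2 (-0.37, adjusted p = 0.0304). Met-CAT-1 passed as higher in edgeR at a minimum mean of 100 RPM (adjusted p = 0.0474). Cysteine has 23 references, and 6 of the 10 tested besides the leading Cys-GCA-3 were higher, at a median log2 fold change of 1.34. Several of the 10 held nearly equal mean shares of cysteine reads. Cys-GCA-4 and Cys-GCA-4- held 0.0769% and 0.0791% at 6 h and 0.217% and 0.222% at 18 h. Cys-GCA-16, Cys-GCA-17 and Cys-GCA-21 held 0.0705%, 0.0685% and 0.0721% at 6 h and 0.196%, 0.190% and 0.190% at 18 h. Their rises may therefore not be independent of each other.

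Relative to the library total, the small nuclear and nucleolar RNAs fell as a class, with 14 of 15 lower and none higher. Their median log2 fold change was -0.92 beside 0.23 for the 168 tRNA references, which hold most reads. Amounts per cell were not measured. Rnu6, the U6 RNA at the catalytic core of the spliceosome (mm10 chr17:13432033-13432139 in the RefSeq table; U6 has many copies, whose reads the reference may gather), measured 11544 and 11666 RPM at 6 h and 6201 and 5499 RPM at 18 h. The groups were far apart, with a log2 fold change of -0.99 ± 0.16 (SE, adjusted p = 0.0017), and the level at rest, 10745 and 9806 RPM, had been close to that at 6 h. Rnu11, the U11 RNA of the minor spliceosome (chr4:132270079-132270186), went from 296 and 367 RPM to 174 and 163 RPM, a log2 fold change of -0.98 ± 0.16 (SE, adjusted p = 0.00247).

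Rnu1a1, a U1 RNA that pairs with 5′ splice sites (chr11:87422867-87423030), measured 5410 and 8068 RPM at 6 h and 3013 and 2621 RPM at 18 h. The log2 fold change was -1.26 ± 0.19 (SE, adjusted p = 0.00139), after 26385 and 24822 RPM at rest. The further U1 references Rnu1b1, Rnu1b2 and Rnu1b6 fell by 0.74, 0.72 and 0.67 on the log2 scale. Rnu1b6 lost its call without replicate 2 of 6 h (log2 fold change -0.34, adjusted p = 0.188), without replicate 2 of 18 h (adjusted p = 0.0917) and in a fit of the 4 libraries alone (adjusted p = 0.0789). Rnu1b1 and Rnu1b2 had nearly equal reads in every library. Rnu2-10, the U2 RNA that binds the branch point, went from 21586 and 27869 RPM to 16461 and 10058 RPM, and Rnu5g, a U5 RNA, from 4442 and 5241 RPM to 2493 and 2666 RPM. The U3 nucleolar RNAs, which act in the cutting of pre-rRNA, fell by 0.84 (Rnu3a) to 0.98 (Rnu3b3 and Rnu3b1) on the log2 scale. By their RefSeq coordinates they are slightly longer than the 200 nt size limit of the library. Rnu3b1, Rnu3b2 and Rnu3b3 had nearly equal reads in all libraries. Rnu73b, at 13.1 and 23.4 RPM at 6 h and 6.82 and 6.78 RPM at 18 h, fell by 1.43. Rnu7, which acts in the 3′ processing of histone mRNA, was the exception, with 251 and 226 RPM at 6 h and 192 and 369 RPM at 18 h and overlap between the groups (adjusted p = 0.605). Without replicate 1 of 18 h, Rnu7 passed as higher (log2 fold change 0.63, adjusted p = 0.0475).

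Of the 7 rRNA references 3 were lower: the 5S references 146 and 113, whose reads were nearly equal, and 5.8S rRNA, which fell by 0.67 on the log2 scale. The 5S reference 146 measured 16291 and 21717 RPM at 6 h and 13104 and 9594 RPM at 18 h (log2 fold change -0.74 ± 0.22, SE, adjusted p = 0.0293). The 5S reference 136 and the 18S, 28S and 45S references were not called (adjusted p from 0.149 to 0.272); the last 3 exceed the size limit of the library, so their reads come from fragments. Replicate 2 of 6 h carried the higher level of every rRNA reference at that time. Without replicate 1 of 6 h, 5 rRNA references were lower, the 5S reference 136 and 45S pre-rRNA among them (adjusted p = 0.0186 and 0.0498). Without replicate 2 of 6 h no rRNA reference was called and 10 of the 15 small nuclear and nucleolar references were lower; without replicate 2 of 18 h, 1 rRNA reference and 13 were. SeC-TCA-1, Rnu6, Rnu11, Rnu1a1 and Rnu5g were lower in each of those fits. With TMM, the tRNA scale or DESeq2 size factors in edgeR, 14 and 3 were again lower and none higher, while the DESeq2 test called 14 and 6 lower, with the 5S reference 136, 18S and 45S among them (adjusted p = 0.0302, 0.0317 and 0.0188).

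**Figure D5:**
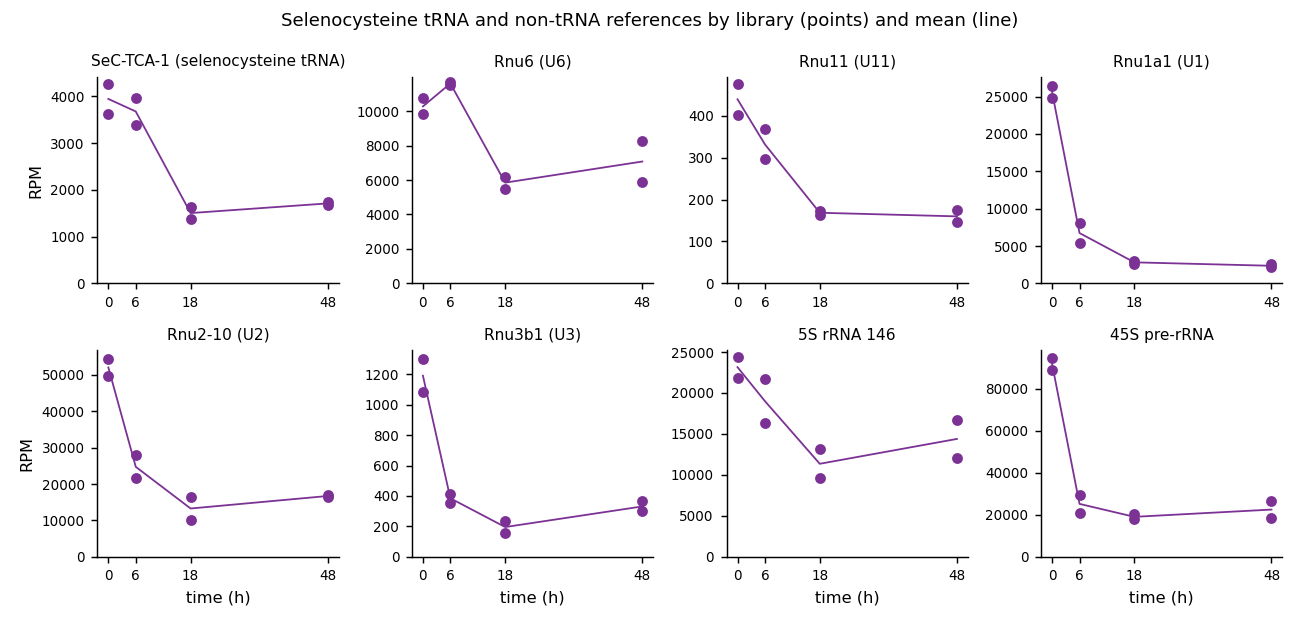
RPM of the selenocysteine tRNA and 7 non-tRNA references against time of stimulation (points are libraries, lines join means, each axis starts at 0). In RPM, SeC-TCA-1 and Rnu6 stood near their resting level at 6 h and lay lower at 18 h. Rnu1a1, Rnu2-10, Rnu3b1 and 45S pre-rRNA were already far below the resting level at 6 h.

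Methylation of adenosine (m1A) in the T loop of the tRNAs was measured by other samples of the series at 6 h only, so its change to 18 h is not known here. In the authors' deposited table, wild-type m1A levels of the 44 isoacceptors ran from 68.7% to 96.3%, with a median of 90.8%. The 12 isoacceptors that rose between 6 h and 18 h had a median of 89.2% in that table and the 31 that were not called 91.4%. In the same authors' table, SeC-TCA had 91.0%, Gln-TTG 90.0%, Trp-CCA 86.6% and Pro-TGG 76.8%. Across the 44 isoacceptors, which are not independent replicates, Pearson's r between the m1A level at 6 h and the log2 fold change was -0.16, given as a description.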

How the data were processed

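Per the labels, small RNA of wild-type CD4 T cells was deacylated and treated with AlkB before tRNA-seq. For each library the authors deposited read counts and RPM (reads scaled to a library total of 1000000) on 242 references. Per the submitters' processing notes the build was mm10. The same notes list Bowtie2 2.4.1, HISAT2 2.0.5, Trim Galore 0.6.6 and featureCounts 1.5.0-p3 without tying any of them to an assay. How reads that match several near-identical references were assigned is not given in the sources used here, so splits between isodecoders rest on that step. The m1A levels in percent, and the coverage as counts, come from a table the authors deposited with 1 value per genotype and isoacceptor.

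Library totals were recovered from counts and RPM; listed references held 99.6% to 99.8% of them. Counts were summed per isoacceptor and amino acid and fitted with edgeR 4.0.16 (glmQLFit and glmQLFTest, mean RPM of at least 10, library totals as sizes, all 8 tRNA-seq libraries sharing the spread), with Benjamini-Hochberg adjustment over all features tested. The standard error is the absolute log2 fold change divided by the square root of F. The tRNA scale uses summed tRNA reads and TMM factors. DESeq2 1.42.0, limma 3.58.1 (log2 of RPM plus 1 or 10), other filters and scales, a replicate block and leaving out each library were alternatives; in the last, the lone library of a time is assumed to vary like the others. On simulated counts for this contrast, 54.6% of isoacceptors changed 1.25-fold and 97.9% of those changed 1.5-fold were recovered among 49, and 2.17% and 29.7% of references among 190. The simulation gave all features of a level the same dispersion and raised as many as it lowered. Real features differ in spread and most calls among tRNAs were rises, so these percentages do not give the power for single features.

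Members and lists were chosen with earlier results of these data known. The naming rule took, among called features without overlap and with a mean of at least 100 RPM, the 6 isoacceptors and 8 references farthest in each direction; the 6 most abundant isoacceptors; both methionine tRNAs and SeC-TCA; every non-tRNA reference; the leading reference of each named isoacceptor; and isoacceptors with references called in opposite directions. The suppressor references Sup-TCA and Sup-TTA, at under 10 RPM, were not tested.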

Additional observations from a re-analysis of the deposited data

How the results depend on the processing

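Among called features picked by the naming rule, no fold change took the other sign under any of the 19 alternatives. Called features that the report names outside that rule, such as Leu-TAG, Arg-TCG and Ala-CGC-1, were not covered. The count of called isoacceptors, 13 with library totals, was 8 with TMM, 7 with DESeq2 size factors in edgeR, 7 on the tRNA scale and 18 with DESeq2, which shares the scale of those size factors. Leaving out single libraries, on either scale, gave 1 to 17 isoacceptors, 49 to 94 references (main count 80) and 1 to 5 amino acid families (main count 4); the lowest counts came without a 6 h library. No label ties same-numbered replicates to each other; the correlation of their deviations over 48 isoacceptors was -0.387 between 6 h and 18 h and -0.133 to 0.359 between the other times, and no pairing was assumed. The replicate block gave 14 isoacceptors, 76 references and 7 amino acid families, and on the tRNA scale 6 isoacceptors; 5S references 146 and 113 lost their call under it (adjusted p = 0.0561 each), and Asp-GTC passed (adjusted p = 0.035). The cause of these differences was not tested, apart from the smaller number of libraries in the fits that leave one out. Among features picked by the naming rule, the signs that turned were of those not called on library totals. Glu-CTC was -0.0062 with TMM, -0.0085 on the tRNA scale, -0.012 with the replicate block on it and -0.061 to 0.088 with a library left out, and its reference Glu-CTC-1 was -0.031, -0.0092 and -0.012 in these settings, -0.14 with DESeq2 or its size factors and -0.063 to 0.087 with a library left out. Cys-GCA was -0.066 with TMM, -0.058 with DESeq2 or its size factors, -0.068 on the tRNA scale, -0.069 with the replicate block on it and -0.13 to 0.050 with a library left out (Cys-GCA-3: -0.15 to 0.034). With DESeq2 or its size factors Rnu7 was -0.0012, Trp-CCA-2 -0.013 and Tyr-GTA-3 -0.029; with a library left out Rnu7 ran from -0.35 to 0.63 and Tyr-GTA-3 from -0.041 to 0.36. Of 18 uncalled amino acid families, 9 took another sign under some alternative, none of these past the threshold, and 4 (Tyr, Gly, Asp and His) passed it with their own sign. The small 18 h minus 6 h differences in the shares of anticodon bases A and C turned sign when a library was left out. With 2 libraries a group, leaving 1 out always moves a group mean by less than its replicate SD. The size of that move is therefore no check on the share differences. When only listed reads were counted, the difference in the tRNA share moved by less than the larger replicate SD. At this depth counting error is small, and the number of libraries limits precision.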
